A study of Mus musculus with 3 samples.

Results

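The genes described here are 58 genes of DNA replication and of the response to stalled replication forks, chosen by symbol from the 18038 genes of a count table. They were measured in 3 hearts of wild-type (WT) C57BL/6J mice, an inbred laboratory strain, at postnatal day 9. RNA was sequenced from whole heart tissue without treatment, and the 3 samples, called hearts 1, 2 and 3 after their replicate numbers, form the only group. No second genotype, age or treatment was available for comparison, so the genes were compared with each other within a heart and their spread was compared between hearts. Nothing in the labels ties a replicate number to its own litter or animal, and p-values therefore cover no more than the scatter among these samples, part of which could be technical.

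Replication starts when the origin recognition complex, with Cdc6 and Cdt1, loads the MCM helicase onto DNA in G1. In S phase the kinase Cdc7, Cdc45 and the GINS complex turn the loaded helicase into a moving fork, and polymerases alpha, epsilon and delta copy the opened strands with the clamp PCNA. When a fork stalls, single-stranded DNA coated by RPA activates the kinase ATR and, through claspin, CHK1. In the mouse heart, cardiomyocytes pass through a last round of DNA synthesis in the first postnatal weeks, often without cell division, while endothelial cells and fibroblasts go on dividing. In whole tissue, fewer cells of a type and less RNA per cell cannot be told apart.

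The libraries held 17766501, 18643408 and 18768094 counts in hearts 1, 2 and 3. All 8 cardiomyocyte markers were detected, led by Myl2 (26128 ± 998 TPM), Actc1 (20958 ± 2984 TPM), Tnnt2 (12910 ± 1549 TPM) and Myh6 (12281 ± 318 TPM). TPM is abundance scaled to gene length and to a total of 1000000 per heart, and errors are SD over 3 hearts throughout. Heart 1 stood apart in airway genes: the summed level of 8 lung and airway genes was 1620 TPM in heart 1, 0.78 TPM in heart 2 and 6.5 TPM in heart 3. The next airway genes, Sftpd and Foxj1, had 3.38 and 1.51 TPM in heart 1. Scgb1a1 and Scgb3a2, secretory proteins of the airway, varied between hearts (edgeR goodness of fit, Benjamini-Hochberg adjusted p = 5.49e-195 for Scgb1a1). The test of variation and the differences of the helicase and mitosis genes between hearts are therefore also given without heart 1.

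All 58 replication genes were detected, that is, they reached 1 CPM (counts divided by the library total, times 1000000) in every heart, as did 71.8% of all genes in the table. Together they summed to 1344, 1259 and 1299 TPM in hearts 1, 2 and 3, or 1300 ± 42.8 TPM. Their median level was 18.3 TPM, close to the 19.1 TPM of all detected genes, and 26 of the 58 lay above that value. Only Pcna, Rrm2 and Rpa1 exceeded 50 TPM. A further 22 genes lay between 20 and 50 TPM, 14 between 10 and 20, 8 between 5 and 10, and 11 below 5 TPM. Between the highest and the lowest count in any heart, the genes spanned 1951 to 29 reads, with a median of the mean counts of 358. Relative spread between hearts, the SD divided by the mean, had a median of 8.875% and a range of 1.02% to 26.5%.

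**Figure D1:**
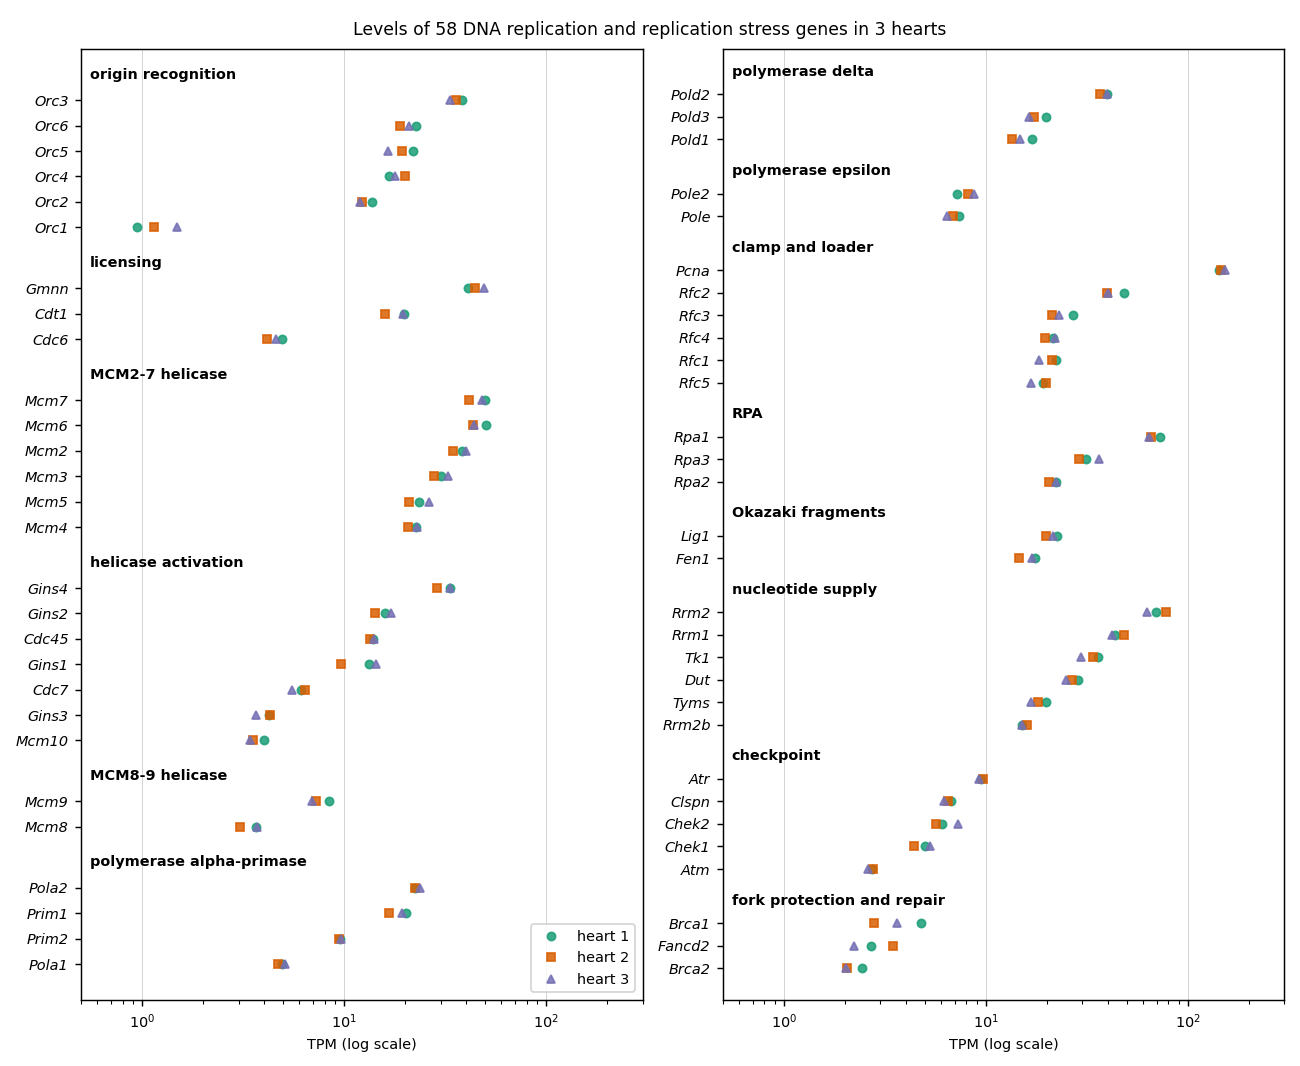
Level of each of the 58 genes in each heart, in TPM on a log axis, grouped by role and ordered by mean within a role. Points of the 3 hearts lie close together for most genes, from Pcna at 146 TPM to Orc1 at 1.19 TPM.

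DNA motifs are used below to show what the promoters of some of these genes share. Their letters are printed here for genes that are described below by level or by difference between hearts. The first is the site of the E2F factors, which drive S-phase genes, searched as the octamers TTTCCCGC, TTTCGCGC, TTTGCCGC and TTTGGCGC on both strands. The other is the cell cycle homology region (CHR), TTTGAA on both strands, an element of genes used in G2 and mitosis. Windows of 300 bases, from 250 before to 50 after the gene start, came from RefSeq (GRCm38.p6) and were found for 48 of the 58 genes. The stretches below run 5′ to 3′ along the gene, and capitals mark the E2F octamers.

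Mcm5: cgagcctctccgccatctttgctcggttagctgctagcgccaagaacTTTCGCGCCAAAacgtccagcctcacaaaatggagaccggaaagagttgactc

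Mcm6: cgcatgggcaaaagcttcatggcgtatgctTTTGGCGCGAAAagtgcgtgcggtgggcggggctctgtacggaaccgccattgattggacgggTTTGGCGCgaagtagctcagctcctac

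Mcm7: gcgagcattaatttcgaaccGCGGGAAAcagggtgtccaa

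Cdc6: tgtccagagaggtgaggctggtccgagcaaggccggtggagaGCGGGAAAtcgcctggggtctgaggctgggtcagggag

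Orc1: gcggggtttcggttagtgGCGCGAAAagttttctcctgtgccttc

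Rfc3: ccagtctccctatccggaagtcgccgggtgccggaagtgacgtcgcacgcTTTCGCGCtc

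The Mcm5 stretch is chr8:75109309-75109408 on the + strand, and the Mcm6 stretch is chr1:128359726-128359845 on the - strand. Those of Mcm7 (chr5:138172029-138172068, - strand), Cdc6 (chr11:98907971-98908050, + strand), Orc1 (chr4:108579409-108579453, + strand) and Rfc3 (chr5:151651209-151651268, - strand) also lie upstream of the RefSeq start. In the GENCODE M21 annotation, whose starts differ, the Mcm7 and Cdc6 stretches lie inside the gene, and those of Orc1 and Rfc3 span the start. In Mcm5 the capitals hold 2 octamers on opposite strands that share 4 bases, and in Mcm6 the first run of capitals holds such a pair as well. Each gene shown is one whose level or difference between hearts is described in the text.

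Origin recognition genes summed to 108 ± 6.08 TPM. Orc3 was the highest at 35.9 ± 2.39 TPM, and its range did not overlap that of the next gene, Orc6. Orc6 (20.9 ± 1.95 TPM), Orc5 (19.2 ± 2.78 TPM) and Orc4 (18.2 ± 1.73 TPM) overlapped in turn and were not ordered beyond their spread. Orc2 stood below them at 12.7 ± 0.908 TPM.

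Orc1, the largest subunit (gene ID 18392, chr4:108579423-108614833, + strand in GENCODE M21), was far below its partners. It had 0.938, 1.14 and 1.49 TPM in hearts 1, 2 and 3, from 29, 37 and 47 reads. The group's highest gene, Orc3, was thus 30.2 times as abundant as Orc1, which lay at the 2.89th percentile of detected genes. Counting error alone gave Orc1 an exact Poisson 95% interval of 0.628 to 1.35 TPM in heart 1 and 1.09 to 1.98 TPM in heart 3, and these intervals overlap. In human cells the ORC1 protein is destroyed after origins are licensed, while its partners are stable. The transcripts of Orc1 and Orc6 together stood at a log2 ratio of -1.97 ± 0.145 to the sum of Orc2 to Orc5, below it in all 3 hearts.

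Among the licensing genes, Gmnn was the highest at 40.8, 44.2 and 49.0 TPM in hearts 1, 2 and 3. Geminin, its product, binds Cdt1 and blocks a second loading of helicase in the same cycle. Cdt1 itself had 19.8, 15.9 and 19.6 TPM, and the log2 ratio of Gmnn to Cdt1 was 1.28 ± 0.218, a 2.43-fold excess of the inhibitor's transcript. Without correction for gene length this log2 ratio was 0.03, the implied Gmnn transcript being the shorter. The excess thus rests on the lengths that the authors' FPKM assumes and not on the reads. Cdc6, the loading ATPase, was the lowest at 4.56 ± 0.395 TPM, with Cdt1 4.04-fold above it.

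The 6 subunits of the replicative helicase were among the more abundant members, at a summed 206 ± 14.8 TPM. Mcm7 (46.5 ± 4.38 TPM) and Mcm6 (45.9 ± 3.94 TPM) overlapped at the top. Below them stood Mcm2 at 37.5 ± 2.73 TPM and Mcm3 at 30.1 ± 2.51 TPM, each apart from its neighbours. Mcm5 (23.5 ± 2.65 TPM) and Mcm4 (22.1 ± 1.25 TPM) overlapped at the bottom, although Mcm5 was above Mcm4 in all 3 hearts. The proteins form a ring with 1 copy of each, and the transcripts ranged over 2.10-fold between the highest and the lowest.

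The helicase genes exceeded the origin recognition genes by a log2 ratio of 0.93 ± 0.128, or 1.90-fold in sum. Their sum exceeded that of the 4 GINS genes 3.22-fold (log2 1.69 ± 0.042), with little difference between hearts. Mcm8 and Mcm9, paralogs that act as a pair in homologous recombination, summed to 11.0 ± 0.925 TPM, and the replicative helicase genes were 18.7-fold higher in sum. Those sums hold 6 genes against 2, and the median levels per gene were 33.8 and 5.5 TPM. Mcm8 lay below Mcm9 in every heart (log2 ratio -1.12 ± 0.194).

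Genes that activate the loaded helicase ranged over 8.70-fold. Gins4 led at 31.8 ± 2.64 TPM, against 15.8 ± 1.48 TPM for Gins2, 12.4 ± 2.46 TPM for Gins1 and 4.07 ± 0.346 TPM for Gins3, although the GINS proteins form a complex with 1 copy of each. The Gins2 value is uncertain, since 70.7% of its exon bases overlap exons of Gse1 on the opposite strand and the strand setting of the counting is not given in the sources used here. Cdc45, the helicase cofactor, had 13.8 ± 0.252 TPM, the second smallest relative spread of all 58 genes at 1.82%. Cdc7, the kinase that starts each origin, had 6.01 ± 0.450 TPM and Mcm10, needed for the fork to begin moving, 3.65 ± 0.314 TPM.

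Transcripts of polymerases alpha and delta differed in level between subunits, although the subunits form complexes with 1 copy of each. In polymerase alpha-primase, which lays the primers, the catalytic subunit Pola1 had 4.95, 4.72 and 5.12 TPM in hearts 1, 2 and 3. Its partner Pola2 had 22.3, 22.4 and 23.8 TPM, so the log2 ratio of Pola1 to Pola2 was -2.21 ± 0.035, a gap far wider than the spread between hearts. The primase subunits differed less, with Prim1 at 18.7 ± 1.90 TPM, 1.96-fold above Prim2 at 9.54 ± 0.0972 TPM.

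For polymerase delta, which copies the lagging strand, the accessory gene Pold2 (38.7 ± 1.69 TPM) was 2.58-fold above the catalytic gene Pold1 (15.1 ± 1.75 TPM), a log2 ratio of 1.37 ± 0.117 that was 0.23 without the length correction. Pold3 (17.7 ± 1.73 TPM) was only 1.18-fold above Pold1 and overlapped it. Polymerase epsilon, which copies the leading strand, was at the low end: its catalytic gene Pole had 6.88 ± 0.458 TPM and Pole2 8.01 ± 0.787 TPM. On the TPM scale, Pole2 and Pole were the only pair of the 26 examined whose order differed between hearts, with log2 ratios of -0.03, 0.25 and 0.44. Without the length correction Pole2 was below Pole in all 3 hearts (-1.95), and 3 other pairs, Gmnn and Cdt1, Pold1 and Pole, and Pold3 and Pold1, changed order between hearts. Pold1 exceeded Pole by a log2 ratio of 1.13 ± 0.129 per length, against 0.05 without the length correction.

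Pcna, the sliding clamp that tethers polymerases to DNA (gene ID 18538, chr2:132249162-132253314, - strand), was the most abundant of the 58 genes. It had 142, 145 and 153 TPM in hearts 1, 2 and 3, at the 92.5th percentile of detected genes. The clamp is loaded by replication factor C, whose small subunits Rfc2 (42.7 ± 4.93 TPM), Rfc3 (23.7 ± 2.86 TPM), Rfc4 (21.0 ± 1.32 TPM) and Rfc5 (18.5 ± 1.71 TPM) share 1 large subunit, Rfc1 (20.6 ± 2.05 TPM). Rfc2 stood above the rest, while Rfc3, Rfc4, Rfc1 and Rfc5 overlapped in turn. Summed, the small subunits were 5.15-fold above Rfc1 (log2 ratio 2.36 ± 0.111, or 0.57 without the length correction), and Pcna was 1.38-fold above that sum.

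Single-stranded DNA at the fork is covered by RPA, a complex with 1 copy of each of its 3 subunits. The large subunit Rpa1 had 72.7, 65.3 and 64.1 TPM. Rpa3 (32.2 ± 3.87 TPM) and Rpa2 (21.6 ± 0.868 TPM) lay below it in every heart, at log2 ratios to Rpa1 of -1.07 ± 0.221 and -1.64 ± 0.089. Okazaki fragments are trimmed by the flap nuclease Fen1 and sealed by the ligase Lig1. Lig1 had 21.2 ± 1.45 TPM and Fen1 16.3 ± 1.5 TPM (log2 ratio of Fen1 to Lig1 -0.38 ± 0.043), and Pcna stood 9.01-fold above Fen1. The Fen1 level is uncertain, because 84.1% of its exon bases are shared with genes on the opposite strand, among them Tmem258 at 184 ± 10.9 TPM.

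Nucleotide supply genes were, with the helicase and the clamp and its loader, the most abundant by sum, at 208 ± 15.1 TPM. Ribonucleotide reductase makes the DNA building blocks from 1 large and 1 small subunit. Rrm2, the small subunit of dividing cells, had 69.6, 77.4 and 62.7 TPM in hearts 1, 2 and 3, 1.56-fold above the large subunit Rrm1 (44.7 ± 3.14 TPM). The other small subunit, Rrm2b, which is induced by p53 and serves cells outside S phase, had 15.1, 15.9 and 15.0 TPM. Its log2 ratio to Rrm2 was -2.18 ± 0.108, so that the S-phase form predominated in each heart.

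The thymidine genes followed in the order Tk1, Dut and Tyms. Thymidine kinase 1, which salvages thymidine, had 33.1 ± 3.29 TPM, the dUTPase gene Dut 26.7 ± 1.82 TPM, and thymidylate synthase, Tyms, 18.2 ± 1.59 TPM. Tyms was below Tk1 in all 3 hearts (log2 ratio -0.86 ± 0.036) and Dut above Tyms (0.55 ± 0.028). Both orders turn when length is not corrected for, to 0.70 and -0.22, and the order of Rrm2 and Rrm1 turns likewise to -0.26.

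Checkpoint and fork protection genes were low, with medians of 6.32 and 2.80 TPM. Atr, the kinase of stalled forks, had 9.48, 9.66 and 9.18 TPM in hearts 1, 2 and 3. Atm, the kinase of double-strand breaks, had 2.74, 2.76 and 2.61 TPM. Their log2 ratio of 1.8 ± 0.011 was the most even of the 26 pairs, a 3.49-fold excess of Atr per length. The excess shrank to 0.48 on the log2 scale without the length correction, the length assumed for Atm being the longer. The length implied by count and FPKM was 4631, 4731 and 4868 bases for Atr in hearts 1, 2 and 3. The exons of Atr hold 8211 bases in GENCODE M21, so the excess depends on the length assumed. In CPM scaled by edgeR's TMM factors, Atr had 22.1, 22.9 and 23.5 and Atm 16.4 in each heart. The evenness per length thus sits partly in the length term.

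Clspn, the adaptor between ATR and CHK1, had 6.46 ± 0.272 TPM, overlapping Chek2 at 6.32 ± 0.862 TPM. Chek1, the target of ATR, had 4.89 ± 0.440 TPM and lay below Chek2, the target of ATM, in every heart (log2 ratio -0.37 ± 0.102). Without the length correction the order of Chek1 and Chek2 turned, to 0.24. Of the fork protection genes, Brca1 had 3.72 ± 0.988 TPM, Fancd2 2.80 ± 0.635 TPM and Brca2, a homologous recombination factor, 2.17 ± 0.236 TPM, and neighbours in this order overlapped. Brca1 was above Brca2 in all 3 hearts per length (log2 ratio 0.75 ± 0.268) but below it, at -0.34, without the length correction.

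Brca1 had the largest relative spread of the 58 genes, 26.5%. Its TPM was 4.75, 2.78 and 3.63 in hearts 1, 2 and 3, whereas its length-free CPM, scaled by edgeR's TMM factors, was 10.7, 8.22 and 8.70. The gene length implied by the deposited count and FPKM was 4494, 5904 and 4563 bases in the same hearts. Part of the Brca1 difference on the TPM scale thus sits in the length term and not in the reads. Among the 54 members with 100 or more counts in every heart, Brca1 and Pole2 were the only ones whose implied length differed by over 10% between hearts, against 2.14% of 10845 genes with such counts.

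**Figure D2:**
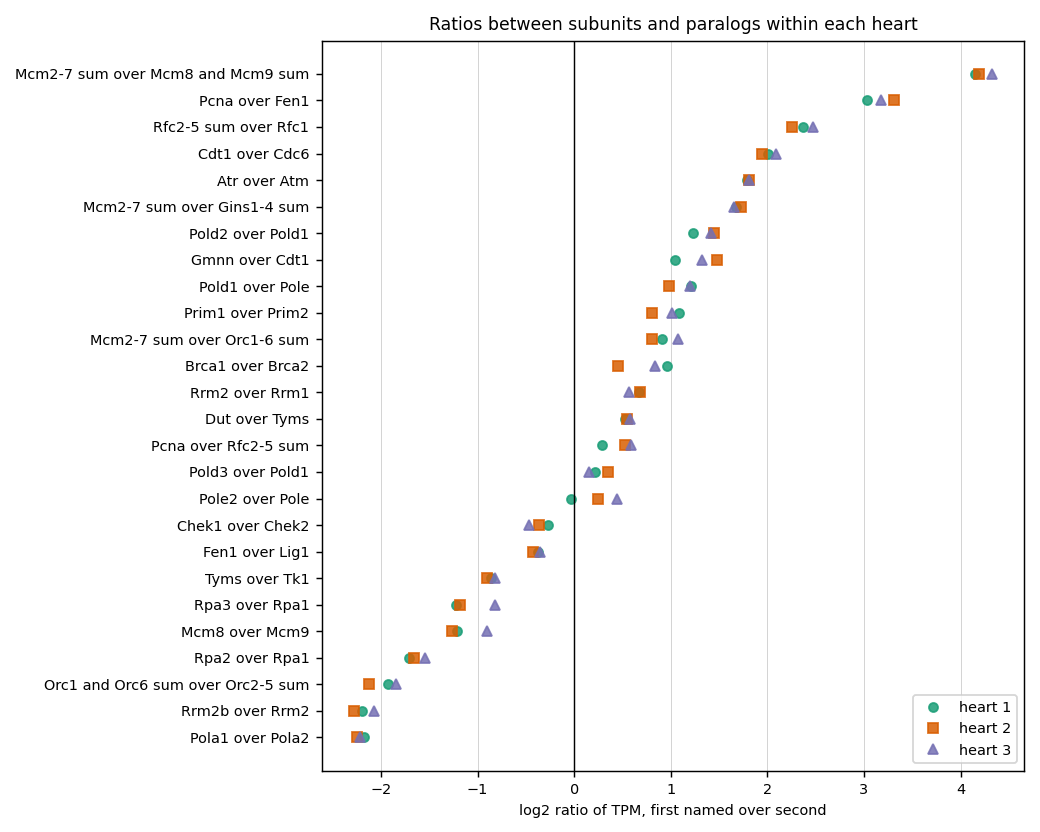
Log2 ratio of TPM within each heart for 26 pairs of genes or sums, with the first named over the second and 1 point per heart. In 16 pairs all hearts lie right of 0, in 9 all lie left of it, and Pole2 over Pole spans 0.

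Within the roles, 30 of 44 neighbours in order of level had ranges that did not overlap over the 3 hearts, and 14 overlapped. These orders and ratios carry no p-value, since the smallest p that exact sign flips over 3 hearts can give is 0.25. The ratios compare transcripts and are set by the lengths that the authors' FPKM assumes. Ratios of sums were not corrected for the number of genes on either side.

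None of the 58 genes was called as varying between hearts beyond genes of like abundance, against 1.52% of the 13312 genes tested (202 genes; edgeR goodness of fit, adjusted p under 0.05). At an unadjusted p under 0.05, too, the count was 0 of 58, against 5.23% of all genes, and with DESeq2's size factors and dispersion trend it was also 0. The lowest unadjusted p was 0.261, for Fancd2. Missing the threshold does not show that a gene had the same level in the 3 hearts. Without heart 1 the adjusted count stayed at 0, while 3 of 58, Mcm5, Fancd2 and Gins1, passed the unadjusted threshold in the edgeR fit of the other hearts, a share near the 4.56% of all genes in that fit. Their adjusted p in that fit was 0.921 for Mcm5 and Fancd2 and 1 for Gins1.

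The ratio of the highest to the lowest heart in TMM-scaled CPM had a median of 1.17 for the replication genes and 1.18 for all genes tested. It reached 1.5 in 3 members, or 5.17%, against 13.6% of all genes. These were Orc1 (1.58), Gins1 (1.56) and Fancd2 (1.54), all of low count. Gins1 had 13.3, 9.66 and 14.4 TPM in hearts 1, 2 and 3, and its counting intervals in heart 2 (7.77 to 11.9 TPM) and heart 3 (12.1 to 16.9 TPM) did not overlap. Fancd2 ran the other way, with 2.70, 3.48 and 2.22 TPM, highest in heart 2 and lowest in heart 3. Its counts were fractional, as were those of 9 further members, which happens when reads are divided among several genes or transcripts.

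Small differences nevertheless ran together within some roles. All 6 helicase genes had their lowest TMM-scaled CPM in heart 2, where 29.2% of all genes did, and 5 of the 6 had their highest in heart 3, where 33.4% of all genes did. Mcm5, for example, had 33.1, 30.5 and 39.8 CPM in hearts 1, 2 and 3, and Mcm7 had 57.9, 48.2 and 58.6 CPM. Mcm6 was the exception at the top, with 75.8, 64.7 and 69.2 CPM. The 4 polymerase alpha-primase genes were also lowest in heart 2 and highest in heart 3 in TMM-scaled CPM. Hearts 1 and 2 were nearly tied for Pola2 (26.03 and 25.96 CPM) and Prim2 (9.03 and 8.98 CPM). In TPM, Pola2 was lowest in heart 1 (22.3, 22.4 and 23.8) and Prim1 highest there (20.2, 16.6 and 19.4). The 3 RPA genes were lowest in heart 2 in TMM-scaled CPM, but in TPM Rpa1 was lowest in heart 3 (72.7, 65.3 and 64.1). Both Okazaki fragment genes were lowest in heart 2. Of these, Fen1 shares most exon bases with opposite-strand genes, among them Tmem258 (185, 172 and 194 TPM), also lowest in heart 2. The part of this overlap in the Fen1 order was not tested. Over all 58 genes, 33 (56.9%) were lowest in heart 2 and 9 (15.5%) were highest there, against 28.7% of all genes highest there.

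These shifts were small. The median log2 difference of heart 2 from the mean of the other hearts was -0.21 for the helicase genes and -0.116 for all members, against 0.001 for all genes tested. For heart 3 it was 0.176 for the helicase genes and 0.06 for all members, against 0.004 for all genes. Relative to all genes, the helicase genes stood at -0.275 in heart 2 with heart 1 left out and at -0.139 with heart 3 left out, against -0.211 with all hearts. In heart 3 they stood at 0.172 with all hearts and at 0.103 with heart 2 left out. For all members, the heart 3 value was 0.055 with all hearts and 0.006 with heart 2 left out. With heart 1 left out, 39 of 58 members were lower in heart 2 than in heart 3. The share of all genes lower in heart 2 was not counted for these 2 hearts alone. Relative to all genes, the median of all members in heart 2 was then -0.09.

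Nucleotide supply genes did not share this order. None of the 6 was lowest in heart 2, and 4 of 6 were lowest in heart 3, where 32.2% of all genes were. Rrm1 had 86.1, 94.6 and 86.7 CPM in hearts 1, 2 and 3, and Rrm2 had 73.2, 81.3 and 69.1 CPM, both highest in heart 2. Rrm2b was highest in heart 2 as well and lowest in heart 1, with 33.4, 35.2 and 34.7 CPM. The thymidine genes had another order. Tk1 had 36.0, 33.7 and 29.5 TPM, Dut 28.6, 26.5 and 25.0 TPM, and Tyms 19.8, 18.1 and 16.7 TPM. These 3 were highest in heart 1 and lowest in heart 3 in TMM-scaled CPM as well. Of all 58 members, 22 (37.9%) were highest in heart 1, the same share as the 37.9% of all genes. Checkpoint genes were mixed, with Chek1 and Chek2 lowest in heart 2 and Atr, Atm and Clspn within 0.07 of the other hearts on the log2 scale.

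**Figure D3:**
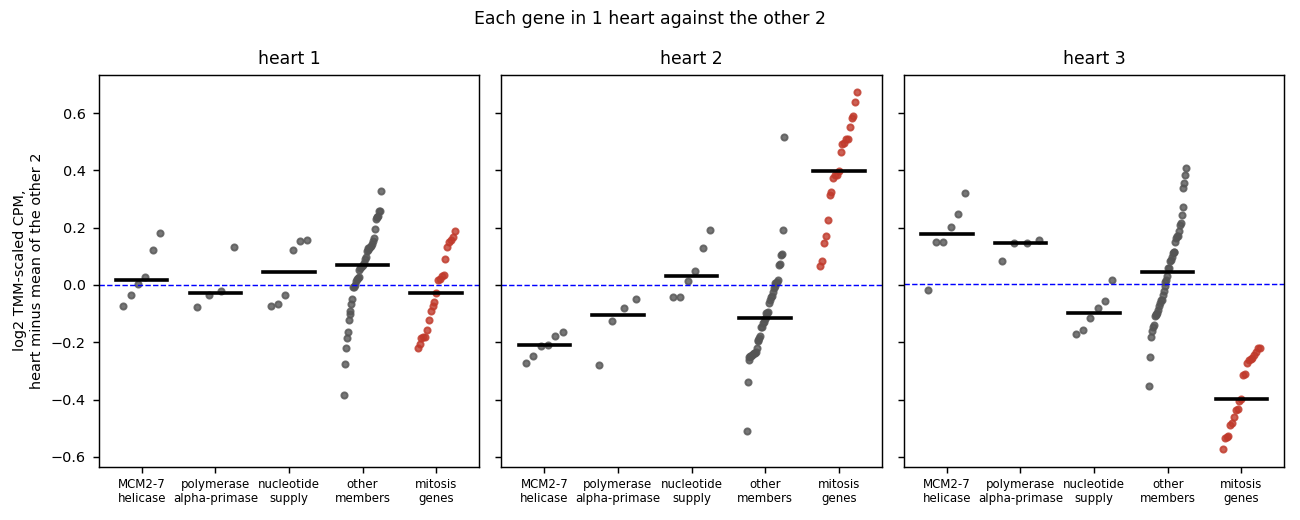
Log2 difference in TMM-scaled CPM of each gene in 1 heart from the mean of the other hearts, with 1 panel per heart, 1 point per gene and a bar at the median. Helicase genes lie below 0 in heart 2 (median -0.21), whereas genes of mitosis lie above 0 in heart 2 (median 0.399) and below 0 in heart 3 (median -0.399).

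Genes of mitosis moved between the hearts in a different order from the helicase genes, a contrast chosen after the values were seen. All 21 mitosis genes had their lowest TMM-scaled CPM in heart 3, where 32.2% of all genes did. Of the 21, 18 had their highest in heart 2, where 28.7% of all genes did. By level the list was led by Birc5 (51.5 ± 7.22 TPM), Ccnb2 (40.2 ± 9.48 TPM), Mki67 and Top2a (37.5 ± 6.56 TPM). Mki67, a marker of cycling cells, had 37.1, 47.7 and 29.0 TPM in hearts 1, 2 and 3, and Ccnb1, the mitotic cyclin, had 24.4, 36.5 and 20.2 TPM. Summed, the helicase genes had 214, 189 and 214 TPM and the mitosis genes 467, 565 and 374 TPM. The log2 ratio of the helicase sum to the mitosis sum was -1.12, -1.58 and -0.81 in hearts 1, 2 and 3. It thus ranged over 0.78 between hearts, over 0.78 without heart 1, over 0.32 without heart 2 and over 0.46 without heart 3. Without heart 1, the median log2 difference of the mitosis genes relative to all genes was 0.54 in heart 2. None of the 21 mitosis genes passed the edgeR goodness of fit test after adjustment, against 1.52% of all genes. The lowest adjusted p in that test was 0.278, for Ccnb1. At an unadjusted p under 0.05 there were 7 of 21 (33.3%; Mki67, Ccnb1, Plk1, Cenpf, Anln, Aspm and Cdc20), against 0 of 58 replication genes and 5.23% of all genes.

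**Figure D4:**
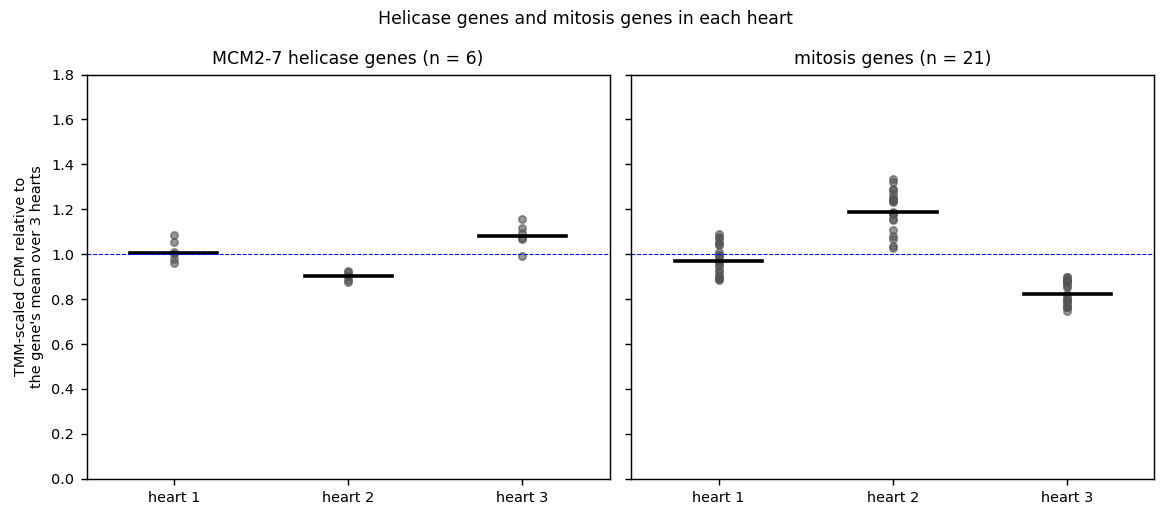
TMM-scaled CPM of each gene relative to its mean over the 3 hearts, for 6 helicase genes (left) and 21 mitosis genes (right), with a bar at the median. The helicase genes dip in heart 2, where the mitosis genes peak, and the mitosis genes are lowest in heart 3.

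Markers of other cells moved with the hearts as well. Erythroid genes, led by the globins Hba-a1, Hbb-bs, Hba-a2 and Hbb-bt, had the same order of sums as the mitosis genes. The 8 summed to 13419, 14192 and 8556 TPM in hearts 1, 2 and 3, and Hbb-bt, an adult beta globin, varied between hearts (517, 797 and 371 TPM; edgeR goodness of fit, adjusted p = 0.00161). Alas2, the erythroid heme synthesis enzyme, had 44.7, 64.0 and 32.1 TPM (adjusted p = 0.0603), and the red cell regulator Klf1 was below detection. All 6 erythroid genes tested had an unadjusted p under 0.05 in that test, against 5.23% of all genes. Of these 6, 4 were highest in heart 2, where 28.7% of all genes were. Hba-a1 (5768, 5590 and 3459 TPM) and Hba-a2 (3643, 3580 and 2228 TPM) were highest in heart 1 instead. Smooth muscle and pericyte genes, led by Rgs5, Tagln, Pdgfrb and Kcnj8, were lowest in heart 1 in 7 of 7, against 38.6% of all genes. Their sums were 490, 701 and 727 TPM. Macrophage genes, led by Lyz2, C1qa, C1qb and Csf1r, summed to 315, 254 and 263 TPM. The sum was lowest in heart 2, as were those of the replication genes and the cardiomyocyte markers (83887, 82234 and 85530 TPM). By gene, 4 of the 8 cardiomyocyte markers were lowest in heart 2, 3 in heart 1 and 1 in heart 3. Of the same 8, 2 were highest in heart 2, where 28.7% of all genes were. Of the 7 macrophage genes, 4 were lowest in heart 2 and 6 were highest in heart 1, against 29.2% and 37.9% of all genes. Lymphocyte and thymus genes, among them Cd79a, Cd4 and Lck, summed to 3.5, 8.28 and 9.72 TPM in the 3 hearts, with Cd79a, a B cell receptor chain, varying (0.352, 3.38 and 3.56 TPM; adjusted p = 0.00871) and Dntt at 0 counts in all. The sums of the 8 endothelial genes, led by Cdh5, Eng, Pecam1 and Egfl7, were 1109, 1240 and 1213 TPM. Those of the 7 fibroblast genes, led by Col3a1, Postn, Dcn and Col1a1, were 3585, 3796 and 3823 TPM. The part of these cells in the order of the replication genes was not tested.

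The E2F octamers printed above were found in 18 of the 48 replication windows (37.5%), against 4.15% of the windows of 10317 detected genes. They were in 4 of the 5 helicase windows (Mcm3, Mcm5, Mcm6 and Mcm7), in Cdc6 and Cdt1, and in the origin genes Orc1 and Orc3. Gins3, Mcm8, Pola1, Pold1, Pold3, Pole2, Rfc3, Chek2, Clspn and Brca2 held them too. None of the 5 nucleotide supply windows and none of the 3 RPA windows did. Mcm2, the helicase gene without an octamer, held a CHR instead. The octamers are rich in G and C, and the median GC share was 59.0% in the replication windows and 61.0% in those of detected genes.

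The CHR was found in 5 of 48 replication windows (10.4%), close to the 11.6% of detected genes, but in 13 of 18 windows of mitosis genes (72.2%), where E2F octamers were found only in Cdk1 (5.56%). For contrast with the E2F sites, the start regions of Cdk1, the mitotic kinase, and Cdc20, the activator of the anaphase-promoting complex, are printed with the CHR in capitals.

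Cdk1: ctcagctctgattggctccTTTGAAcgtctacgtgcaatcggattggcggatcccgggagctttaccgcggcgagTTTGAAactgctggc

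Cdc20: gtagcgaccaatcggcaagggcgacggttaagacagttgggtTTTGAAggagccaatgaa

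The Cdk1 stretch is chr10:69352913-69353002 and the Cdc20 stretch chr4:118437344-118437403, both on the - strand and both ending at the base before the start. CCAAT boxes, searched on both strands, were in 58.3% of replication windows, 77.8% of mitosis windows and 38.7% of those of detected genes, and in all 5 helicase windows. Matches were counted wherever they occurred, overlaps included. A match describes the letters of the window and not binding, and a window without one says only that these letters are not in it.

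**Figure D5:**
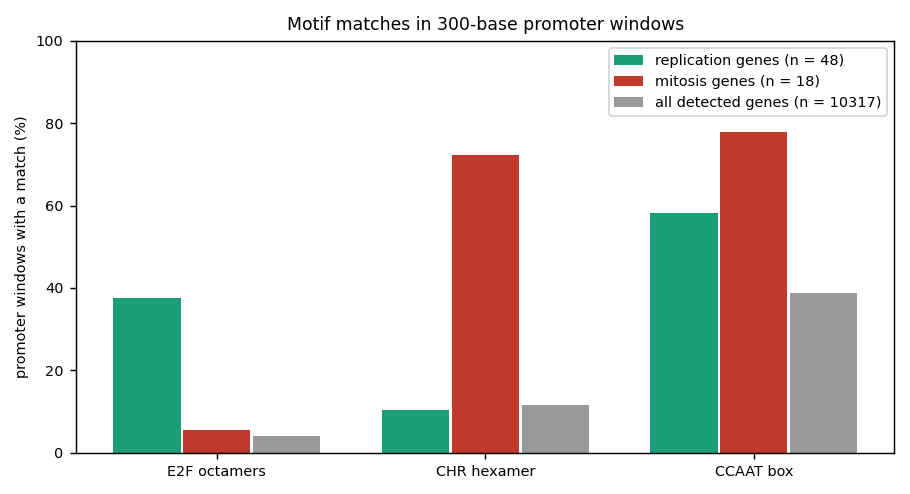
Share of promoter windows (%) with at least 1 match to E2F octamers, the CHR hexamer and the CCAAT box, for 48 replication genes, 18 mitosis genes and 10317 detected genes. E2F octamers are in 37.5% of replication windows and the CHR in 72.2% of mitosis windows.

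The starts of some replication genes lie close to that of another gene. In the GENCODE M21 annotation of GRCm38, 18 of 58 members (31.0%) had a protein-coding gene on the opposite strand starting within 1000 bases of their own start, against 15.5% of 12780 detected genes. The partner started upstream, with no overlap, in 12 of the 18, and inside the member in 6 (Orc4, Orc6, Mcm7, Cdc45, Fen1 and Tk1). Mcm4 lies head to head with Prkdc, the catalytic subunit of DNA-dependent protein kinase, whose start is 466 bases upstream. Mcm4 had 22.1 ± 1.25 TPM and Prkdc 4.20 ± 0.529 TPM. Atm starts 307 bases from Npat, a histone gene activator, with 2.70 ± 0.0811 TPM for Atm and 9.69 ± 0.572 TPM for Npat.

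Some low members of such pairs faced an abundant gene. Fancd2, whose start is 30 bases from that of Emc3, had 2.80 ± 0.635 TPM beside 83.7 ± 2.34 TPM. Brca1 had 3.72 ± 0.988 TPM and Nbr1, an autophagy receptor that starts 194 bases away, 70.5 ± 4.43 TPM. Orc1 had 1.19 ± 0.278 TPM and Prpf38a, 87 bases away, 32.5 ± 1.45 TPM. Rpa1 showed the opposite, at 67.4 ± 4.64 TPM beside Smyd4 at 4.56 ± 1.15 TPM. The other pairs were Orc3 with Rars2, Orc4 with Mbd5, Orc6 with Vps35, Mcm7 with Ap4m1, Cdc45 with Ufd1, Gins1 with Abhd12, Mcm8 with Trmt6, Pole with Pxmp2, Rpa3 with Umad1, Fen1 with Tmem258, Tk1 with Afmid and Chek2 with Hscb. In 19 members at least 1 exon base overlapped an exon on the opposite strand, and in Fen1 and Gins2 over 50% did.

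Of 82 other genes of the pathway, none was called as varying between hearts by the edgeR goodness of fit test, against 1.52% of all genes. In that test 1 of the 82 (1.22%), Ccna2, had an unadjusted p under 0.05, against 5.23% of all genes. All 25 other genes of replication initiation and the fork were detected, led by the topoisomerases Top1 (63.3 ± 3.60 TPM) and Top2b (56.2 ± 3.43 TPM), by Chtf8, a subunit of an alternative clamp loader (53.5 ± 5.45 TPM), and by Rnaseh2c, of the nuclease that removes ribonucleotides from DNA (40.0 ± 4.04 TPM). All 18 genes of fork stress and repair were detected, led by the checkpoint clamp loader Rad17 (24.1 ± 3.13 TPM), the fork remodeller Smarcal1 (21.8 ± 1.36 TPM), the kinase Wee1 (21.7 ± 1.31 TPM) and the checkpoint clamp gene Rad9a (11.6 ± 1.83 TPM). The 7 translesion and repriming polymerase genes were lower, with a median of 5.67 TPM and Rev1 highest at 14.8 ± 1.06 TPM, followed by Polh at 12.5 ± 0.216 TPM, Rev3l at 7.76 ± 0.643 TPM and Polk at 5.67 ± 0.342 TPM.

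Genes that rebuild chromatin behind the fork, 8 of 8 detected, were led by the histone chaperone Nasp (59.0 ± 2.76 TPM), the histone mRNA binder Slbp (32.2 ± 1.40 TPM), the maintenance methyltransferase Dnmt1 (29.2 ± 0.872 TPM) and its recruiter Uhrf1 (20.8 ± 2.82 TPM). Of 8 other nucleotide genes, all detected, Nme2, a nucleoside diphosphate kinase, stood at 809 ± 40.4 TPM, above Nme1 (55.1 ± 5.53 TPM), thymidylate kinase Dtymk (51.3 ± 3.10 TPM) and the mitochondrial Dguok (41.9 ± 2.78 TPM). The 16 regulators of the G1/S transition were all detected. Ccna2, the S-phase cyclin, had 61.5, 80.7 and 50.3 TPM in hearts 1, 2 and 3 (edgeR goodness of fit, adjusted p = 0.724), an order shared with the mitosis genes and with Rrm2. The kinase inhibitors Cdkn1a (59.0 ± 5.58 TPM), Cdkn1b (55.6, 52.4 and 50.9 TPM) and Cdkn1c (44.1 ± 4.24 TPM) were each more abundant than any of the 6 origin recognition genes.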

How the data were processed

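RNA was extracted from 3 WT hearts with Trizol and sequenced on DNBSEQ, per the labels' protocols. The deposited table holds the authors' read counts and FPKM per gene and heart, per the file headers. Counts lay within 0.005 of whole numbers for 87.48% to 87.60% of genes and were fractional for the rest. The deposited counts were therefore treated as estimated counts, and were rounded for the tests. The submitters' processing notes name HISAT, an aligner, and GRCm38.p6. For counting tool, annotation and strand, the setting is not given in the sources used here. The 2 columns of the authors' means were not used, and 1 line of spilled text was left out. TPM is the deposited FPKM rescaled to 1000000 per heart.

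Variation between hearts was tested by edgeR (version 4.0.16, under R 4.3.3 with limma 3.58.1) with TMM scaling (factors 1.02, 0.998 and 0.986), mean CPM of at least 1, a fit with 1 intercept, the trended dispersion, deviance against chi-square, and Benjamini-Hochberg adjustment over 13312 genes at a threshold of 0.05. The same deviance with DESeq2 1.42.0 size factors and dispersion trend, other scalings, filters and dispersions, and leaving out each heart were tried as alternatives. The method was tested on simulated data. Counts of 29 to 1951 per gene set the counting error, and exact Poisson 95% intervals cover that error only. No interval includes variation between animals.

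Members, pairs and lists were chosen with earlier results of these data known. Every member and pair is reported by value or by count, and of each other list the 4 genes with the highest mean TPM and those past the test, apart from an item not reported here. Ccnb1, Cdk1, Cdc20, Alas2, Klf1 and Dntt were named after their values were seen. Strands and neighbouring starts are those of GENCODE M21, and promoter windows those of RefSeq.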

Additional observations from a re-analysis of the deposited data

How the results depend on the processing

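The count of 0 members varying between hearts was the same in all 9 alternatives run, DESeq2 and each heart left out included. The count over all genes, 202, ranged from 93 to 138 when 1 heart was left out (111 without heart 1, 138 without heart 2, 93 without heart 3), with fewer samples in each fit, and from 164 to 260 in the other alternatives. All 58 members were detected except at 3 CPM or 1 TPM in every heart, where 57 were, Orc1 falling out. Without length correction, pairs with the first named higher in every heart numbered 12 and not 16, and 5 pairs turned: Rrm2 over Rrm1 to -0.26, Tyms over Tk1 to 0.7, Dut over Tyms to -0.22, Chek1 over Chek2 to 0.24 and Brca1 over Brca2 to -0.34. A further 20 pairs moved beyond their SD, and 1 of these, Pole2 over Pole, also changed sign (to -1.95), while adding 0.5 TPM moved 3. Without heart 2, several small differences between hearts changed sign. Relative to all genes, the median log2 difference of heart 1 ranged from -0.006 to 0.118 for members, -0.103 to 0.139 for the helicase genes and -0.305 to 0.239 for the mitosis genes when another heart was left out. For members other than the helicase genes, that of heart 3 ranged from -0.004 to 0.076. Members lowest in heart 2 numbered 33 with TMM, 36 with upper quartile scaling and 29 in TPM. No member was called as varying, so none was followed through the alternatives. No paired analysis was possible because all samples form 1 group. With 3 hearts, members of 29 counts upwards and spread between hearts beyond counting error, small differences could pass undetected. The median spread fitted for members was 13.1%.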

Other observations

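Fancd2 shared its order over the hearts with Fanci, whose product binds that of Fancd2 in the Fanconi anaemia pathway, a gene named after its values were seen. Fancd2 had 2.70, 3.48 and 2.22 TPM in hearts 1, 2 and 3, and Fanci had 2.58, 3.56 and 1.95 TPM. The order was not particular to this pair, since Ccna2, Rrm2 and Hbb-bt had it too. Other Fanconi anaemia genes had other orders, with 5.51, 5.18 and 4.33 TPM for Fanca and 2.52, 3.30 and 2.61 TPM for Fancm. The share of all genes with this order was not counted. Neither Fancd2 nor Fanci passed the edgeR goodness of fit test (adjusted p of 1 for both), and both genes had fractional counts.

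The strand column of the deposited table differed from GENCODE M21 for 16 of the 58 replication genes (27.6%) and for 14.9% of 17535 genes matched by symbol. Every one of the 2614 genes concerned was listed on the + strand and annotated on the - strand, and none of 6135 genes listed on the - strand differed. The listed strand was used for no value.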
